A study of Mus musculus with 9 samples.

Results

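Regulatory T cell identity genes were examined in CD45+ cells sorted from mouse melanomas. The 8 genes were chosen by name as genes that mark or maintain this cell type: Foxp3, Ikzf2, Ikzf4, Il2ra, Izumo1r, Ccr8, Lrrc32 and Capg. The rule used no measured value, but the choice was made with earlier results of these data known. All 8 were among the 13178 genes that passed the filter on low counts, of 22136 genes quantified. C57BL/6J mice carried subcutaneous allografts of YUMM 2.1, a mouse melanoma cell line that the series calls beta-catenin driven, and antibodies were given once tumours measured 20 to 50 mm3. There were 3 RNA sequencing libraries from tumours given an antibody against B7-H3, 3 from tumours given an antibody against PD1, and 3 from tumours given control IgG. B7-H3 and PD1 are immune checkpoint proteins. Every group carried the same tumour line, and the labels give neither the age of the mice nor whether each library came from its own animal, so p-values measure only the spread between these libraries. The series' design text also names a combination of both antibodies, which is not analysed here.

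Regulatory T cells are CD4+ T cells that restrain other immune cells, and they accumulate in many tumours. Foxp3 is the transcription factor that fixes their lineage, and Ikzf2 (Helios) and Ikzf4 (Eos) are zinc finger factors of the Ikaros family found with it. Il2ra (CD25) is the alpha chain of the interleukin-2 receptor, Ccr8 is a chemokine receptor typical of regulatory T cells in tumours, and Lrrc32 (GARP) holds latent TGF-beta on the cell surface. Izumo1r, also called folate receptor 4, marks regulatory and anergic CD4+ T cells. Capg is an actin-capping protein of the gelsolin family and is also made by macrophages, so among the 8 it is the least specific.

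The members lie on 7 chromosomes in the GENCODE M21 annotation of GRCm38, and all are protein-coding genes. Foxp3 spans chrX:7573644-7595245, Il2ra chr2:11642807-11693193, Lrrc32 chr7:98489283-98502181 and Capg chr6:72544391-72562983, all on the plus strand. Ikzf2 at chr1:69531214-69687245 and Ikzf4 at chr10:128630843-128645991 are on the minus strand. Chromosome 9 holds both Izumo1r, at 14885814 to 14903949 on the minus strand, and Ccr8, at 120092114 to 120094906 on the plus strand.

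STAT5, NFAT and Runx proteins are known regulators of Foxp3, and the first of these also of Il2ra, so promoter sequences are shown for Foxp3, for Il2ra, the member whose level across libraries correlated most with that of Foxp3, and for Ccr8, the chemokine receptor gene. They are RefSeq sequences on GRCm38.p6, written 5′ to 3′ on the plus strand, which is the genes' own strand. Each spans 250 bases before to 50 bases after an annotated start at chrX:7580233-7580532 for Foxp3, chr2:11642542-11642841 for Il2ra and chr9:120091883-120092182 for Ccr8. Another annotated Foxp3 start, with its window at chrX:7579426-7579725, is not shown, and the Foxp3 window shown is the one that held motif matches. Both starts lie inside the annotated gene. Capitals mark the motif matches that were found.
Foxp3: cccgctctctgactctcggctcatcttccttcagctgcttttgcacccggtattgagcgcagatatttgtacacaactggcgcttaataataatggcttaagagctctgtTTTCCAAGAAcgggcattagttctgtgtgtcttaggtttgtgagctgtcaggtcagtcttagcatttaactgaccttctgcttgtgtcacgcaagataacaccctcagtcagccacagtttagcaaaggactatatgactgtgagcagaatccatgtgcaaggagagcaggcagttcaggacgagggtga
Il2ra: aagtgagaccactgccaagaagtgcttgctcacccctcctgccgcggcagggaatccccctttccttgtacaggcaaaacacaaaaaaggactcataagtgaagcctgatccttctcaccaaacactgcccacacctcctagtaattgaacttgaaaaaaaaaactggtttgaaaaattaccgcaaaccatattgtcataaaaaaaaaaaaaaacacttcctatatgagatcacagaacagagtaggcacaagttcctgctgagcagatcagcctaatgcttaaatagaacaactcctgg
Ccr8: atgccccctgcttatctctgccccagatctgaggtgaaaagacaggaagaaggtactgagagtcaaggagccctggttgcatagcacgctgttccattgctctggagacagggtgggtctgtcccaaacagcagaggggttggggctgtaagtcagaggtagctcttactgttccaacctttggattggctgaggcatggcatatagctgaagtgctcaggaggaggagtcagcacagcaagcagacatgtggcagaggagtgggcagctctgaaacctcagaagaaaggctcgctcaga
Motifs of 4 kinds were searched for on both strands, and a match is only a match of letters. TTCNNNGAA, a STAT motif, was found in 8.3% of 32851 promoters of this length. Foxp3 held 1 match to it, TTCCAAGAA, whose leftmost base lay 139 bases before the start. It overlapped a match to the NFAT motif TGGAAA on the other strand, which began 140 bases before the start and which 21.4% of promoters hold. The Izumo1r window, not shown, held an NFAT match 197 bases and a match to the Runx motif TGTGGT 127 bases before its start, and 16.8% of promoters hold the Runx motif. The windows of Il2ra, Ccr8 and Capg and the other Foxp3 start held none of these, and no member window held the forkhead motif TGTTTAC, which 3.65% of promoters hold. Promoters were read for 5 of the 8 members, and those of Ikzf2, Ikzf4 and Lrrc32 are named only.

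Levels are given as CPM, a gene's counts as a share of the TMM-scaled library total, which allows a gene to be compared between libraries. Library totals were 15091916 to 31533106 estimated counts under anti-B7-H3, 24257522 to 30119530 under anti-PD1 and 14487012 to 20477257 under IgG, and 3 counts correspond to 0.0954 to 0.208 CPM. Ptprc, which encodes the CD45 antigen of the sort, had 1718.5 to 2348.0 CPM under anti-B7-H3, 1821.1 to 2410.9 CPM under anti-PD1 and 1871.1 to 2913.0 CPM under IgG. IgG library 2 was separated from the other 8 by the leading principal component (35.9% of variance) and had 1896 of the tested genes at 0. Anti-PD1 library 3 stood apart on the second component with 1248 tested genes at 0, IgG library 3 had 822, and the other 6 libraries had 224 to 308. Pdcd1, which encodes PD1 and which regulatory T cells also express, had 44.5 to 131.1 CPM under anti-B7-H3, 115.7 to 170.5 CPM under anti-PD1 and 103.3 to 234.5 CPM under IgG. Cd276, which encodes B7-H3, had at most 2.83 CPM in any library. Several member values that depend strongly on these libraries, or on anti-B7-H3 library 1, are given again with the library left out. For single genes outside the 8, no such values are given.

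No member passed the test in any of the 3 comparisons (edgeR's quasi-likelihood test, Benjamini-Hochberg adjusted p under 0.05 over all tested genes). Under anti-B7-H3, 7 of the 8 members had a negative log2 fold change against IgG, beside 47.9% of all tested genes. Against anti-PD1, 8 of 8 had one, beside 46.2% of all genes. Under anti-PD1, 3 of 8 were negative against IgG, beside 52.7%. The comparisons share libraries, so they are not independent of each other. The members are correlated across libraries, so these counts are not of 8 separate observations. In bulk libraries of this kind, fewer regulatory T cells and less RNA of these genes per cell cannot be told apart. A list of 16 T cell markers was also mostly negative against IgG, with 14 of 16 under anti-B7-H3 and 15 of 16 under anti-PD1. The median log2 fold changes of these markers were -0.29 and -0.36. For anti-B7-H3 against anti-PD1, 7 of the 16 were negative, with a median of 0.03.

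**Figure D1:**
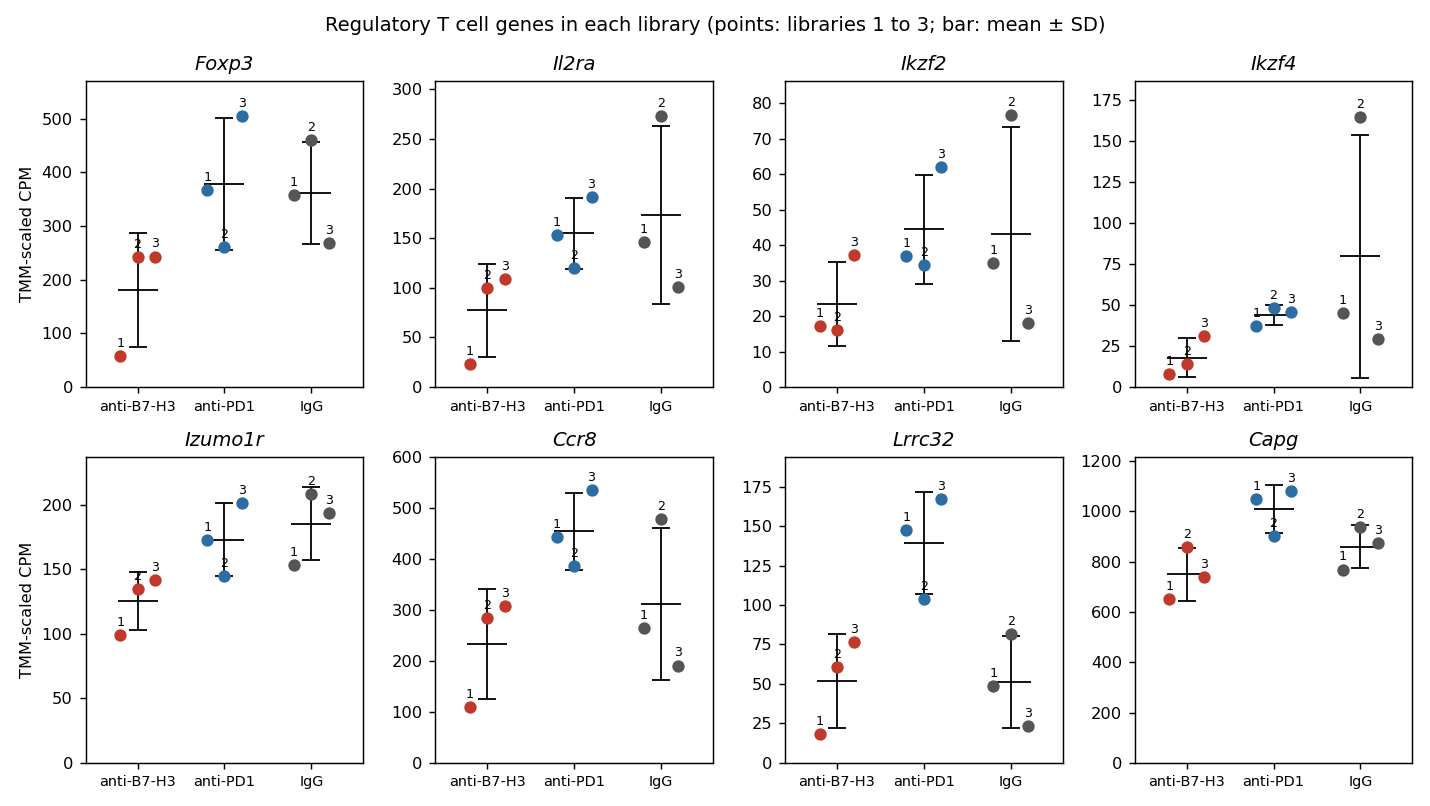
Levels of the 8 members in every library, in TMM-scaled CPM on linear axes from 0, with a panel for each gene and anti-B7-H3, anti-PD1 and IgG from left to right. Points are libraries and bars are the mean ± SD of 3 libraries. Anti-B7-H3 library 1 holds the lowest point for every gene but Ikzf2, and the highest points belong to anti-PD1 library 3 or IgG library 2.

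Foxp3 had 58.8, 242.6 and 243.4 CPM in the anti-B7-H3 libraries, 367.8, 261.8 and 505.8 CPM in the anti-PD1 libraries and 357.2, 460.0 and 269.0 CPM in the IgG libraries. All 3 anti-B7-H3 values lay below every value of the other groups, although libraries 2 and 3 were close to the lowest IgG and anti-PD1 libraries and library 1 was far lower. The mean was 181.6 ± 106.3 CPM under anti-B7-H3, 378.5 ± 122.4 CPM under anti-PD1 and 362.1 ± 95.6 CPM under IgG (SD, n = 3 each). The log2 fold change was -0.99 ± 0.48 (SE) for anti-B7-H3 against IgG, with an edgeR adjusted p of 0.605 and an unadjusted p of 0.0641. Without anti-B7-H3 library 1 it was -0.57. Anti-PD1 against IgG gave 0.06 ± 0.47 with an edgeR adjusted p of 0.979, and the anti-PD1 and IgG values overlapped.

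The Ikaros family members had lower CPM than Foxp3 and, for their mean, were more scattered under IgG. Ikzf2 had 17.1, 16.1 and 37.1 CPM under anti-B7-H3, 36.9, 34.4 and 62.0 CPM under anti-PD1 and 34.9, 76.6 and 18.1 CPM under IgG. The 3 groups overlapped. Its log2 fold change for anti-B7-H3 against IgG was -0.88 ± 0.51 (edgeR adjusted p 0.706), and -0.16 without IgG library 2. Ikzf4 had 8.16, 14.1 and 31.1 CPM under anti-B7-H3, 37.2, 48.4 and 45.9 CPM under anti-PD1 and 45.2, 164.6 and 29.3 CPM under IgG. A single library set its IgG mean, since IgG library 2 was more than 3 times either other IgG library. The Ikzf4 log2 fold change of anti-B7-H3 against IgG, -2.16 ± 0.67, was the most negative of the 8 and had an unadjusted p of 0.0102 and an edgeR adjusted p of 0.337. It was -1.04 without IgG library 2. Against IgG, anti-PD1 gave -0.86 ± 0.65 for Ikzf4 (edgeR adjusted p 0.719), which turned to 0.26 without that library, and 0.04 ± 0.51 for Ikzf2 (edgeR adjusted p 0.986).

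The 3 Ikaros family relatives outside the 8, Ikzf1, Ikzf3 and Ikzf5, had positive values in the same comparison. None of them passed the test. Their median log2 fold change was 0.33 for anti-B7-H3 against IgG and 0.19 for anti-PD1 against IgG, beside 0.02 and -0.04 over all tested genes. Ikzf1 (Ikaros), which lymphocytes use widely, averaged 65.0 CPM under anti-B7-H3 and 50.5 CPM under IgG, with an edgeR adjusted p of 0.684.

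Among the surface receptors, Il2ra followed Foxp3 most closely. It had 23.7, 100 and 108.5 CPM under anti-B7-H3, 153.4, 119.7 and 191.4 CPM under anti-PD1 and 146.6, 273.0 and 100.4 CPM under IgG. The anti-B7-H3 values lay below every anti-PD1 value and overlapped the lowest IgG library. Against IgG its log2 fold change was -1.16 ± 0.54 under anti-B7-H3 (edgeR adjusted p 0.591) and -0.16 ± 0.53 under anti-PD1 (edgeR adjusted p 0.948). Without IgG library 2 these were -0.65 and 0.35.

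Izumo1r had narrower groups than Foxp3. It had 99.4, 135.0 and 141.9 CPM under anti-B7-H3, 172.4, 144.8 and 201.3 CPM under anti-PD1 and 153.6, 208.7 and 194.0 CPM under IgG. Every anti-B7-H3 value lay below every value of the other groups, although the highest anti-B7-H3 and the lowest anti-PD1 value lay close together. The log2 fold change against IgG was -0.56 ± 0.21 under anti-B7-H3, with an unadjusted p of 0.0223 and an edgeR adjusted p of 0.451, and -0.10 ± 0.21 under anti-PD1 (edgeR adjusted p 0.916).

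Ccr8 and Lrrc32 had their highest group mean under anti-PD1. For Ccr8 the mean was 233.5 ± 108.0 CPM under anti-B7-H3, 454.6 ± 75.3 CPM under anti-PD1 and 311.1 ± 149.3 CPM under IgG (SD, n = 3 each). Ccr8 had 109.5, 283.6 and 307.3 CPM under anti-B7-H3, 443.1, 385.7 and 535.0 CPM under anti-PD1 and 263.9, 478.3 and 191.0 CPM under IgG. Anti-B7-H3 and IgG overlapped, and 1 IgG library reached into the anti-PD1 range. Against IgG the log2 fold change of Ccr8 was -0.41 ± 0.41 under anti-B7-H3 (edgeR adjusted p 0.866) and 0.55 ± 0.41 under anti-PD1 (edgeR adjusted p 0.710). Without IgG library 2 these were 0.06 and 1.02, so the direction of the value under anti-B7-H3 depended on that library.

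Lrrc32 was the one member for which all 3 anti-PD1 values lay above all IgG values. It had 18.5, 60.4 and 76.3 CPM under anti-B7-H3, 147.3, 104.0 and 167.3 CPM under anti-PD1 and 48.7, 81.3 and 23.1 CPM under IgG. Its mean was 139.5 ± 32.4 CPM under anti-PD1 and 51.0 ± 29.2 CPM under IgG (SD, n = 3 each), a fitted difference of 2.74-fold. The log2 fold change was 1.45 ± 0.54 with an unadjusted p of 0.0235 and an edgeR adjusted p of 0.347, so it did not pass the test. Leaving out 1 library at a time gave 1.10 to 1.98. Anti-B7-H3 and IgG overlapped fully for this gene, with a log2 fold change of 0.02 ± 0.53 (edgeR adjusted p 0.997).

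Capg had the highest CPM of the members in every library and was the least variable for its mean. It had 651.0, 857.8 and 738.4 CPM under anti-B7-H3, 1047.0, 900.3 and 1078.8 CPM under anti-PD1 and 768.6, 935.7 and 874.8 CPM under IgG. Anti-B7-H3 and IgG overlapped. The log2 fold change against IgG was -0.20 ± 0.18 under anti-B7-H3 (edgeR adjusted p 0.860) and 0.23 ± 0.18 under anti-PD1 (edgeR adjusted p 0.735).

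**Figure D2:**
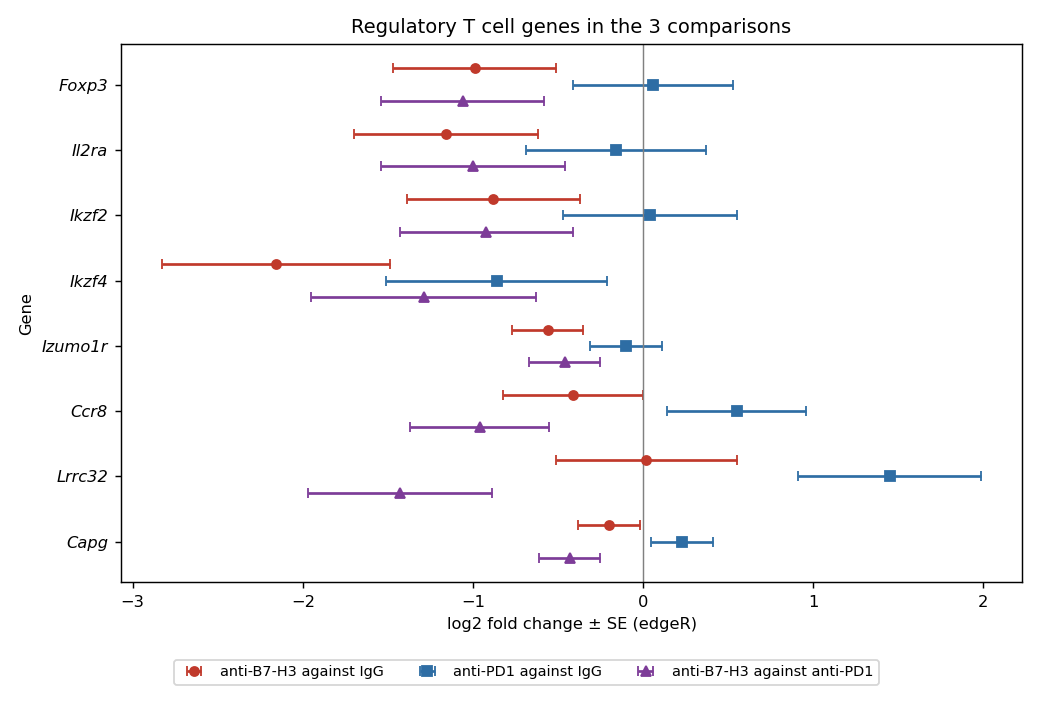
Log2 fold changes of the 8 members with their standard errors in the 3 comparisons, from the edgeR fit of all 9 libraries, with a line at 0 for no difference. Values for anti-B7-H3 against anti-PD1 are negative for 8 of 8 members, from -0.43 for Capg to -1.43 for Lrrc32, and none passes the adjusted threshold.

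For anti-B7-H3 against IgG, 0 of the 8 members passed the edgeR test, beside 0.85% of all tested genes in either direction. Those were mostly higher: 0.827% were called higher and 0.0228% lower. Izumo1r and Ikzf4, 2 of 8 members, had an unadjusted edgeR p under 0.05, beside 8.81% of all genes. That count was 0 without IgG library 2, 1 without anti-B7-H3 library 1, 4 without IgG library 3 and 5 without anti-B7-H3 library 3. Foxp3 and Izumo1r, 2 of 8, lay below IgG without overlap, beside 5.49% of all genes. The median log2 fold change of the members was -0.72, and that of all tested genes was 0.02. DESeq2 called Ikzf4 alone, with an adjusted p of 0.0159, beside 3.0% of all genes, and limma-voom called 0 members, beside 0.653%. The members' median was -0.30 without IgG library 2, -0.50 without anti-B7-H3 library 1 and -0.14 without both, a setting chosen after seeing the data.

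For anti-PD1 against IgG, 0 of 8 members passed the edgeR test, beside 1.74% of all tested genes, and DESeq2 and limma-voom also called 0, beside 4.95% and 1.37% of all genes. Lrrc32 was the only member with an unadjusted edgeR p under 0.05, beside 10.9% of all genes, and the only one above IgG without overlap, beside 9.99% of all genes. That is close to the background share. The count of unadjusted p under 0.05 was 0 without IgG library 1, IgG library 3, anti-PD1 library 1 or anti-PD1 library 3, and 2 without IgG library 2. The median log2 fold change was 0.05 for the members and -0.04 for all genes. It was 0.34 without IgG library 2, with 0 of 8 negative, and -0.21 without anti-PD1 library 3, with 5 of 8 negative. With IgG library 2 and anti-B7-H3 library 1 both left out, Lrrc32 passed the edgeR test with a log2 fold change of 1.96 and an adjusted p of 0.0252, beside 2.19% of all genes.

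Set directly against anti-PD1, anti-B7-H3 gave lower values for all 8 members, as it did for neutrophil markers, whose values are given with the other markers. Innate lymphoid markers were negative for 7 of 8, with a median log2 fold change of -0.58. Migratory dendritic cell markers were negative for 8 of 10, with a median of -0.62. B cell and NK cell markers were negative for 0 of 8 each. Of the 8 members, 7 lay below anti-PD1 without overlap, all but Ikzf2, beside 6.4% of all tested genes. None passed the edgeR test, and neither did any other gene (0.0% called). At an unadjusted edgeR p under 0.05 there were 3 members, Ccr8, Lrrc32 and Capg, beside 3.23% of all genes, and DESeq2 and limma-voom called 0 members, beside 0.106% and 0.0152% of all genes. The count of 3 became 1 without anti-B7-H3 library 1, 0 without anti-PD1 library 1 or anti-PD1 library 3, 5 without anti-PD1 library 2, and 6 without IgG library 2 or anti-B7-H3 library 3. The log2 fold change was -1.06 ± 0.48 for Foxp3 with an unadjusted p of 0.0514, and -0.96 ± 0.41 for Ccr8 with one of 0.0393. Lrrc32 gave -1.43 ± 0.54 with an unadjusted p of 0.0251, and Capg -0.43 ± 0.18 with one of 0.0397. The edgeR adjusted p was 1.0 for each of the 8. The members' median was -0.98 and that of all genes 0.04. The median lay between -0.63 and -1.32 in every alternative run, and -0.63 was the value without anti-B7-H3 library 1.

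Anti-B7-H3 library 1 was the lowest of the 9 for 7 of 8 members, all but Ikzf2, whose lowest was anti-B7-H3 library 2. Anti-PD1 library 3 was the highest for Foxp3, Ccr8, Lrrc32 and Capg, and IgG library 2 for Il2ra, Ikzf2, Ikzf4 and Izumo1r. Much of the spread within groups therefore belonged to 3 libraries.

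Levels relative to T cell receptor complex genes were examined because the sort holds all leukocytes. The sum of Cd3d, Cd3e and Cd3g, which encode the CD3 chains of every T cell, was 2513.5, 1760.9 and 1566.5 CPM under anti-B7-H3, 1702.2, 1685.4 and 2042.7 CPM under anti-PD1 and 1866.9, 2465.0 and 3210.8 CPM under IgG. The lowest member levels and a high CD3 sum thus met in anti-B7-H3 library 1. As a percentage of that sum, Foxp3 stood at 2.34, 13.8 and 15.5 under anti-B7-H3, 21.6, 15.5 and 24.8 under anti-PD1 and 19.1, 18.7 and 8.38 under IgG. Anti-B7-H3 overlapped both other groups on this scale, with a log2 difference of -0.86 from IgG (2-sided exact permutation p 0.5, n = 3 each). That direction rested on anti-B7-H3 library 1: without it the difference was 0.02, and those of Izumo1r and Ccr8 were 0.15 and 0.59. With 3 libraries against 3, that test cannot give a p below 0.1.

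Lrrc32 kept its order relative to CD3. It stood at 0.735, 3.43 and 4.87% of the CD3 sum under anti-B7-H3, 8.66, 6.17 and 8.19% under anti-PD1 and 2.61, 3.30 and 0.719% under IgG. Anti-PD1 lay above both other groups without overlap, with a log2 difference from IgG of 2.05 and an exact permutation p of 0.1, the smallest possible, which was 0.267 after adjustment over all tests on this scale. Izumo1r, Ccr8 and Capg also lay above IgG without overlap under anti-PD1, which makes 4 of 8 members, beside 19.0% of all tested genes on this scale. The CD3 sum that divides these levels averaged 1810.1 CPM under anti-PD1 and 2514.2 CPM under IgG. Undivided, Izumo1r had a log2 fold change of -0.10 in that comparison. Capg is also made by macrophages, so its ratio is not a level per T cell. Relative to CD3, anti-B7-H3 overlapped IgG for all 8 members, whereas 14.7% of all genes lay above IgG without overlap and 0.516% below. It lay below anti-PD1 without overlap for 5 of 8, Il2ra, Ikzf4, Ccr8, Lrrc32 and Capg, beside 5.14% of all genes, and the log2 differences of the 8 ran from -0.51 for Capg to -1.72 for Lrrc32. Each of these 5 had an exact permutation p of 0.1, and again 0.267 after Benjamini-Hochberg adjustment over the 24 tests.

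**Figure D3:**
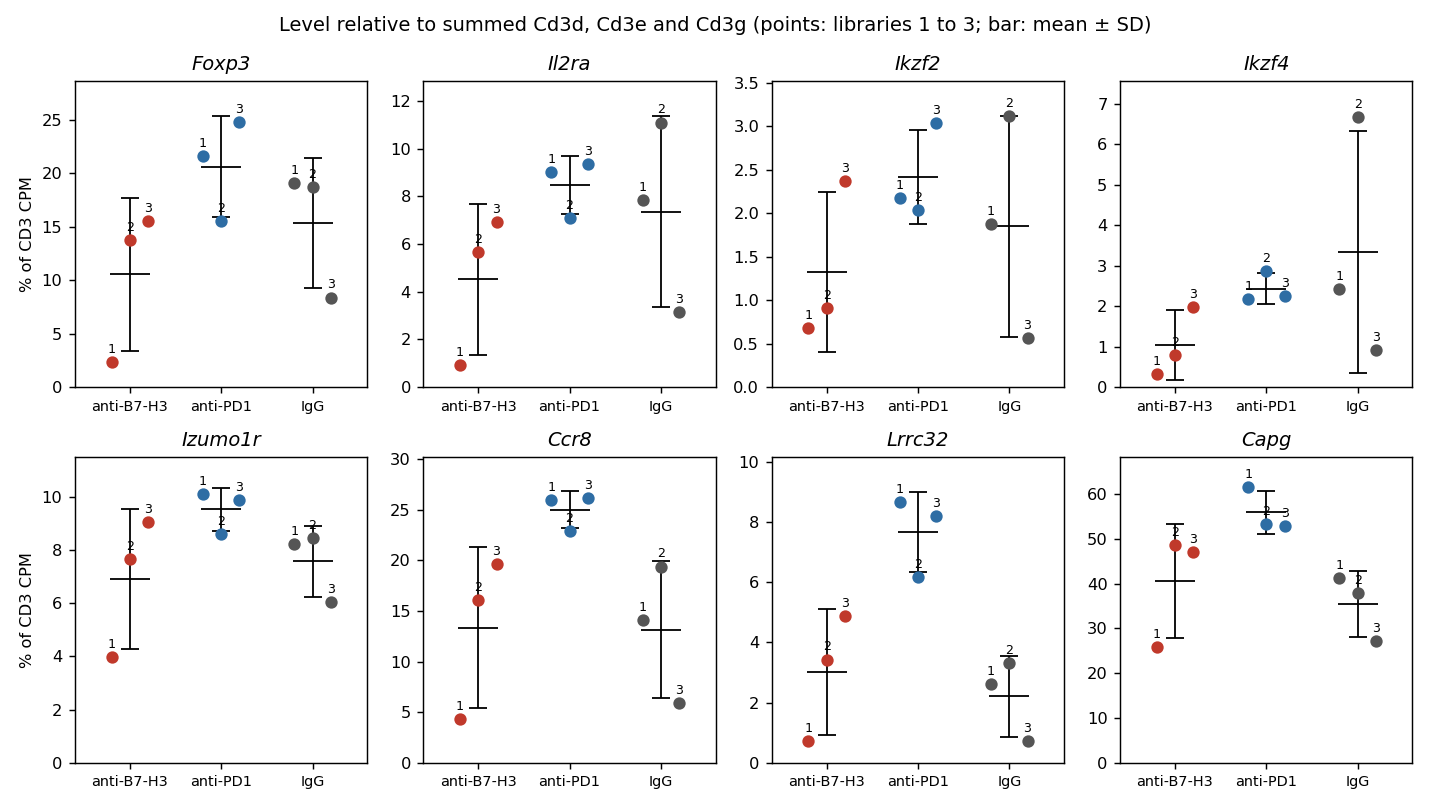
Member levels as a percentage of the summed CPM of Cd3d, Cd3e and Cd3g in each library, on linear axes from 0, for anti-B7-H3, anti-PD1 and IgG, with bars for the mean ± SD of 3 libraries. The anti-PD1 points for Lrrc32, at 6.17 to 8.66%, lie above all points of the other groups, whereas Foxp3 overlaps between groups.

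Macrophage and neutrophil markers rose in both treated groups, and their part in the member values was not tested. The summed level of 12 macrophage markers was 1997.0 to 3017.2 CPM under anti-B7-H3, 1850.8 to 2330.2 CPM under anti-PD1 and 125.6 to 344.1 CPM under IgG. Of these, 8 of 12 were called higher under anti-B7-H3 than under IgG and 9 of 12 under anti-PD1 than under IgG. Over all tested genes, 0.85% and 1.74% were called in these comparisons in either direction. Capg, which macrophages also make, was called in neither comparison. The summed level of 16 T cell markers was 6779.3 to 9750.9 CPM under anti-B7-H3, 6871.7 to 8787.3 CPM under anti-PD1 and 8575.9 to 11338.1 CPM under IgG, with 0 called. The summed level of 8 neutrophil markers was 271.5 to 483.4 CPM under anti-B7-H3, 647.3 to 929.8 CPM under anti-PD1 and 79.4 to 107.2 CPM under IgG, without overlap between any groups. Of the 6 tested, 3 rose under anti-B7-H3 and 4 under anti-PD1 against IgG, and 6 of 6 were negative for anti-B7-H3 against anti-PD1, with a median log2 fold change of -0.96, beside -0.98 for the members, and 0 called. Anti-B7-H3 library 1 also had the highest B cell marker sum, 533.6 CPM, beside 28.5 to 143.9 CPM in the other 8 libraries. The summed level of 8 melanoma markers was 0.376 to 14.1 CPM in all 9 libraries, with Dct at 0 in every one of the anti-B7-H3, anti-PD1 and IgG libraries.

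**Figure D4:**
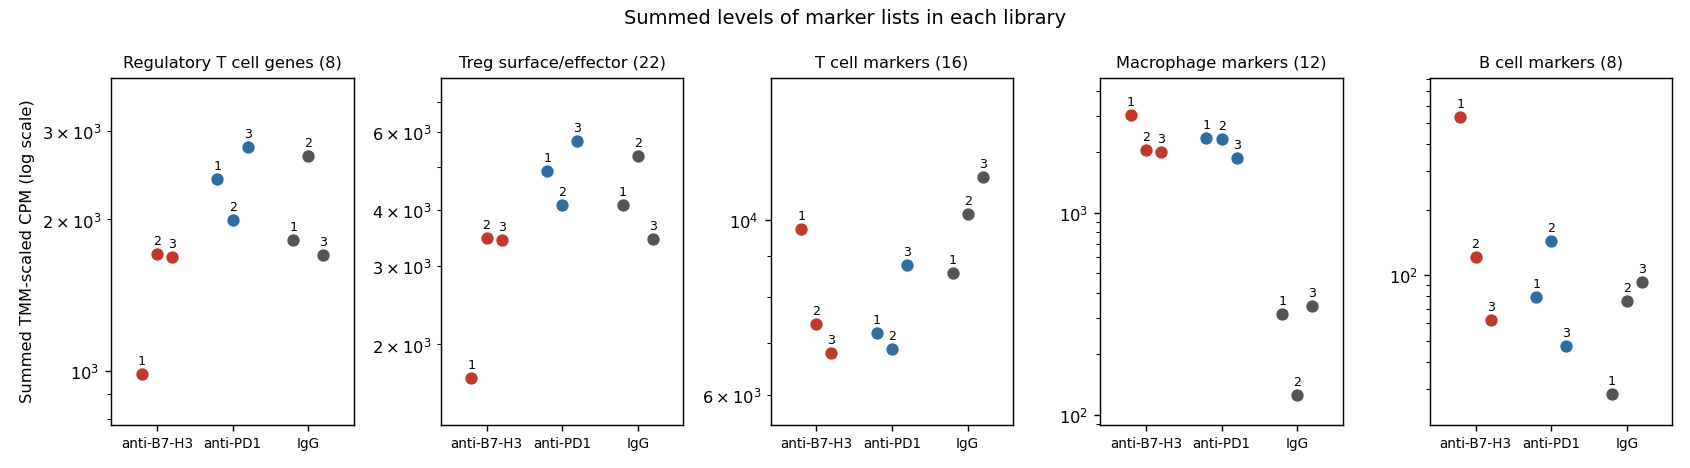
Summed TMM-scaled CPM of the 8 members, of 22 other regulatory T cell genes and of T cell, macrophage and B cell markers in each library, on log axes. Macrophage markers are at 1850.8 CPM or more in the 6 treated libraries and at 344.1 CPM or less in the 3 IgG libraries, while the member sum overlaps between anti-B7-H3, at 986.3 to 1709.7 CPM, and IgG, at 1699.9 to 2678.2 CPM.

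Surface and effector genes of regulatory T cells, a list of 22, had lower values under anti-B7-H3 than under anti-PD1 throughout. For anti-B7-H3 against anti-PD1, 22 of 22 were negative, beside 46.2% of all tested genes. Their median log2 fold change was -0.73, and 0 passed the edgeR test. Against IgG, 18 of 22 were negative under anti-B7-H3, beside 47.9% of all genes, with a median of -0.47 and 0 called. Under anti-PD1, 6 of 22 were negative against IgG, beside 52.7%, with a median of 0.41 and 1 called. Over all tested genes, 1.74% were called in that comparison. Without anti-B7-H3 library 1, the list's median was -0.19 against IgG and -0.44 against anti-PD1, with 12 and 21 of 22 negative. The called gene was Areg, which encodes the tissue-repair ligand amphiregulin and is also made by type 2 innate lymphoid cells. Areg rose under anti-PD1 to 138.9 ± 67.7 CPM, against 30.4 ± 9.0 CPM under IgG (SD, n = 3 each), with a log2 fold change of 2.19 ± 0.41 and an edgeR adjusted p of 0.0220. Under anti-B7-H3 Areg averaged 51.5 CPM (edgeR adjusted p 0.637 against IgG). The summed level of 8 innate lymphoid markers, Areg included, was 499.7 to 748.1 CPM under anti-PD1 and 303.9 to 648.9 CPM under IgG, and its part in the Areg values was not tested. Il10, an inhibitory cytokine, averaged 28.6 CPM under anti-PD1 and 6.10 CPM under IgG without overlap (edgeR adjusted p 0.103). Itgae, the CD103 integrin chain, averaged 159.3 CPM under anti-B7-H3 and 335.5 CPM under IgG without overlap (edgeR adjusted p 0.158). Nrp1, a semaphorin co-receptor on thymus-derived regulatory T cells, averaged 94.6 CPM under anti-B7-H3 and 195.3 CPM under IgG (edgeR adjusted p 0.246). Its highest IgG value was 283.9 CPM in IgG library 2.

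Genes of the interleukin-2 and STAT5 pathway, which lies downstream of Il2ra, had medians near 0. Of 13, 0 were called under anti-B7-H3 against IgG, beside 0.85% of all tested genes, and 1 under anti-PD1, beside 1.74%. The median log2 fold changes were -0.06 and 0.09. The called gene was Socs3, a cytokine-induced inhibitor of JAK signalling, with 218.7 CPM under anti-PD1 and 95.8 CPM under IgG. Its log2 fold change was 1.19 ± 0.19, with an edgeR adjusted p of 0.0100. Under anti-B7-H3 against IgG, Socs3 stood at 0.82 ± 0.19 (edgeR adjusted p 0.109). Socs2 averaged 70.9 CPM under anti-PD1 and 43.0 CPM under IgG (edgeR adjusted p 0.149). Pim1, a kinase gene induced by STAT5, averaged 235.2 CPM under anti-PD1 and 76.9 CPM under IgG (edgeR adjusted p 0.320). Of the 13, 8 were positive and 5 negative under anti-PD1 against IgG.

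Of 30 partners and regulators of Foxp3, 3 rose under anti-PD1 against IgG and 1 under anti-B7-H3 against IgG, and 0 fell. Over all tested genes, 1.74% and 0.85% were called in these comparisons, and only 0.0228% were called lower under anti-B7-H3. Nr4a1, an orphan receptor induced by antigen receptor signalling, had 710.1, 1027.5 and 1377.0 CPM under anti-B7-H3, 1467.3, 1013.2 and 1450.1 CPM under anti-PD1 and 352.1, 307.4 and 345.3 CPM under IgG. Both treated groups lay above IgG without overlap. Its log2 fold change was 1.63 ± 0.26 under anti-B7-H3 (edgeR adjusted p 0.0150) and 1.97 ± 0.26 under anti-PD1 (edgeR adjusted p 0.00382). Irf4, a factor of effector regulatory T cells and of other activated lymphocytes, rose under anti-PD1 by 2.02 ± 0.40 on the log2 scale (edgeR adjusted p 0.0307), and Rel, an NF-kappaB subunit that acts at the Foxp3 locus, by 1.40 ± 0.30 (edgeR adjusted p 0.0468). Anti-B7-H3 against IgG was also positive, at 1.31 ± 0.40 for Irf4 (edgeR adjusted p 0.287) and 0.74 ± 0.30 for Rel (edgeR adjusted p 0.51). These genes are also used by other leukocytes, which the sort contains.

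Among 14 genes of regulatory T cell homing, the chemokine gene Ccl17, a ligand of Ccr4, rose in both comparisons against IgG. It averaged 101.7 CPM under anti-B7-H3, 119.7 CPM under anti-PD1 and 28.9 CPM under IgG, with edgeR adjusted p-values of 0.0406 and 0.0149. The chemokine receptor gene Cxcr4 rose under anti-PD1, with 113.8 CPM against 45 CPM under IgG (edgeR adjusted p 0.0271). Under anti-B7-H3 Cxcr4 averaged 77.2 CPM (edgeR adjusted p 0.354 against IgG). The list did not move as a set against IgG: 8 were positive and 6 negative under anti-B7-H3, and 10 and 4 under anti-PD1. Of all tested genes, 47.9% and 52.7% were negative in these comparisons, and 0.85% and 1.74% were called. For anti-B7-H3 against anti-PD1, 11 of 14 were negative, beside 46.2% of all genes, with a median log2 fold change of -0.43. The receptor gene Ccr6 averaged 23.0 CPM under anti-B7-H3 and 67.8 CPM under IgG without overlap (edgeR adjusted p 0.346). Ccr4 averaged 24.3 CPM under anti-B7-H3 and 48.9 CPM under IgG (edgeR adjusted p 0.507). For both receptor genes IgG library 2 was the highest IgG library, with 115.6 CPM for Ccr6 and 77.1 CPM for Ccr4. Of the 13 tested genes around GARP and TGF-beta, 0 were called, and the median log2 fold change was 0.22 for anti-B7-H3 and 0.43 for anti-PD1 against IgG. Furin, a protease that processes TGF-beta, averaged 154.7 CPM under anti-PD1 and 76.5 CPM under IgG without overlap (edgeR adjusted p 0.0902). Of 8 tested actin-capping relatives of Capg, Gsn (gelsolin) rose in both, to 294.1 CPM under anti-B7-H3 and 344.6 CPM under anti-PD1, against 127.2 CPM under IgG (edgeR adjusted p 0.0230 and 0.00556). Of the folate receptor relatives of Izumo1r, Folr2 alone was tested, and it was not called.

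Likeness across the 9 libraries was measured as Pearson's r of log2 CPM among 9917 genes with a mean of at least 5 CPM. It is a description over libraries that share depth, cell composition and treatment group. The gene nearest to Foxp3 was Kif5b with r = 0.985, followed by Il2ra with 0.980, Ifngr1 with 0.963 and Zfp955a with 0.962. For Lrrc32 the nearest were Ctla4 and Abhd17b, each with 0.974, and for Ccr8 Entpd1 with 0.976, Samsn1 with 0.968 and Cd28 with 0.966. Izumo1r was nearest to Bsdc1 with 0.984 and Tnfrsf18 with 0.965. Ikzf4 was nearest to Syt11 with 0.975, Ikzf2 to Zfp948 with 0.948 and Capg to Fam110a with 0.939. Between members, r ran from 0.480 for Izumo1r and Lrrc32 to 0.980 for Foxp3 and Il2ra.

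Ctla4, an inhibitory receptor of regulatory and activated T cells, was singled out for its likeness to Lrrc32, so its order of groups is no separate evidence. It had 106.7, 263.3 and 258.9 CPM under anti-B7-H3, 469.8, 414.0 and 647.9 CPM under anti-PD1 and 264.1, 303.1 and 154.7 CPM under IgG. The log2 fold change of anti-PD1 against IgG was 1.09 ± 0.36 with an edgeR adjusted p of 0.244, so it did not pass the test.

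The transcripts behind each gene were stable for some members and not for others. Foxp3-206, of 1290 coding bases, held 95.2 to 96.2% of the Foxp3 counts in every library, and Il2ra-201 held 96.1 to 99.8% of those of Il2ra. Izumo1r was divided between Izumo1r-201, with 60.4 to 64.9%, and Izumo1r-204, with 34.1 to 37.0%. Ikzf2 varied most: Ikzf2-207 held 27.3 to 78.9% and Ikzf2-202 held 0 to 47.3%. Ikzf4-203 averaged 66.4% of the Ikzf4 counts under anti-B7-H3, 70.1% under anti-PD1 and 82.4% under IgG, and Ikzf4-204 held most of the rest. These shares of 2 weakly expressed genes were not tested.

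CPM is not scaled by length, so levels of different genes are compared here as deposited TPM, a length-scaled share of all transcripts. A gene's TPM can be carried by a short fragment: Foxp3-209, of 164 bases, held a median of 4.21% of the Foxp3 counts but 46.3 to 53.8% of its TPM. The main transcripts were therefore compared. Under IgG, Capg-201 averaged 515.3 ± 89.6 TPM, Ccr8-201 195.7 ± 109.1 TPM and Foxp3-206 172.3 ± 64.6 TPM (SD, n = 3 each). Il2ra-201 averaged 152.5 ± 90.6 TPM, Izumo1r-201 108.5 ± 20.1 TPM, Ikzf4-203 18.9 ± 17.5 TPM, Lrrc32-203 15.4 ± 9.72 TPM and Ikzf2-207 9.11 ± 4.36 TPM. Capg stood clear of the rest. From Ccr8 to Izumo1r and from Ikzf4 to Ikzf2, the mean ± SD of neighbours overlapped, and their order was not tested. Within each IgG library, Lrrc32-203 lay above Ikzf2-207, but Ikzf2-207 held only part of the Ikzf2 counts. By whole-gene TPM, Ikzf2 and Lrrc32 stood at 23.4 and 29.4 in IgG library 1. They stood at 45.6 and 44.1 in IgG library 2 and at 5.74 and 5.48 in IgG library 3. The order of these genes thus differed between libraries on that scale. Izumo1r-204 averaged a further 89.3 ± 15.4 TPM under IgG, so the place of Izumo1r-201 is not that of the whole gene.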

How the data were processed

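RNA from CD45+ sorted cells was converted with SMART-Seq v4, depleted of ribosomal RNA and made into Nextera XT libraries, per the labels' protocols. These kits do not mark strand, so reads of overlapping or antisense genes cannot be told apart. Per the submitters' processing notes, the build was GRCm38 and FastQC 0.11.8 was among the tools. Which quantifier was run is not given in the sources used here. Per the file headers, each deposited file holds an estimated count and a TPM value per transcript. Of 58083 transcripts, 57409 matched GENCODE M21 and 674 did not and were left out; 87.3% of lengths are multiples of 3, so they are coding lengths.

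Estimated counts were summed to 22136 genes, rounded, filtered with filterByExpr and fitted with edgeR 4.0.16 (R 4.3.3; TMM, quasi-likelihood, all 9 libraries, group as the only term), with Benjamini-Hochberg adjustment over 13178 genes. Standard errors are the log2 fold change divided by the root of F. DESeq2 1.42.0, limma-voom 3.58.1, filters, scaling and left-out libraries were alternatives. Percentages of CD3 were tested by exact permutation after adding 0.1 CPM. The fit was tested on simulated data. The members and lists were chosen with earlier results of these data known. Of each list of related genes, those that passed the test were named, with some others of small p-values. Ctla4 was named for its likeness to Lrrc32. One further gene near Foxp3 in likeness is not reported here.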

Additional observations from a re-analysis of the deposited data

How the results depend on the processing

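Across 18 other settings of the count fit and the 3 comparisons, 0 members were called in 52 cases and 1 in the other 2. DESeq2 called 1 member, Ikzf4, for anti-B7-H3 against IgG (-2.18, adjusted p 0.0159). Leaving out IgG library 2 and anti-B7-H3 library 1 together, chosen after seeing the data, gave 1 member, Lrrc32, for anti-PD1 against IgG. In that setting Ikzf2 stood at 0.0 and Ccr8 at 0.38 for anti-B7-H3, and Il2ra at 0.33 and Ikzf4 at 0.23 for anti-PD1, each against IgG and opposite to or at the edge of its main direction. Voom gave -0.05 for Foxp3 under anti-PD1 against IgG.

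Leaving out 1 library at a time, the log2 fold change of anti-B7-H3 against IgG ran from -0.67 to 0.06 for Ccr8 and from -0.37 to 0.55 for Lrrc32. For anti-PD1 against IgG it ran from -0.20 to 0.30 for Foxp3, -0.44 to 0.35 for Il2ra, -0.33 to 0.77 for Ikzf2, -1.26 to 0.26 for Ikzf4 and -0.22 to 0.02 for Izumo1r. Relative to CD3, anti-B7-H3 against IgG ran from -1.34 to 0.02 for Foxp3, -1.08 to 0.15 for Ikzf2, -0.44 to 0.15 for Izumo1r, -0.57 to 0.59 for Ccr8, -0.34 to 1.15 for Lrrc32 and -0.02 to 0.46 for Capg. For anti-PD1 against IgG it ran from -0.14 to 0.77 for Il2ra, -0.02 to 1.21 for Ikzf2 and -0.73 to 0.70 for Ikzf4. With Cd4 in place of CD3, Ccr8 under anti-B7-H3 against IgG was 0.04. The cause of these differences was not tested.

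Over all genes, calls for anti-B7-H3 against IgG numbered 112, and 395 with DESeq2, 44 with only the 6 libraries compared and 59 to 144 without 1 library. For anti-PD1 against IgG they numbered 229, and 652, 136 and 113 to 262. For anti-B7-H3 against anti-PD1 they numbered 0, and 14 with DESeq2, 2 with voom and 0 to 1 without 1 library. Same-numbered libraries correlated in their deviations at -0.120 to 0.156, and differently numbered ones at -0.145 to 0.123. No pairing by number was seen, but with 3 libraries per group this check cannot exclude one. With the replicate number as a block, calls numbered 64, 127 and 0, with 0 members called, and Lrrc32 under anti-B7-H3 against IgG stood at -0.05. Every member had more than 3 counts in each library. What set the spread between libraries was not tested.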
